A study of Mus musculus with 39 samples.

Results

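The solute carriers of the mouse intestine described here were 227 protein-coding genes whose symbols start with Slc and a digit. They were chosen by their mean level over the 39 libraries, from 49585 gene IDs in the count tables. A gene entered with a mean of at least 5 CPM, which is its count scaled to a common sum of gene counts in each library (the usual CPM unit). Genes on chromosome 12 and the bile acid carriers Slc10a2, Slc51a and Slc51b were left out. Of 357 genes that met the naming rule at any level, 130 were under the limit, 6 of them with 0 counts in every library. Slc2a10 (5.08 CPM) and Slc39a7 (5.10 CPM) were just inside the limit, and Slc25a30 (4.97 CPM) and Slc16a7 (4.74 CPM) just outside. The level thus chose the genes, and since 29 of the 39 libraries were tumours, it was weighted towards carriers present in tumours. 201 of the 227 averaged at least 5 CPM in each of the 4 groups, and the other 26 passed through some groups only. Of these, 4 reached it in 1 group: Slc38a4 and Slc6a14 in wild-type tumours, and Slc36a2 and Slc9a7 in ex/ex tumours. Slc1a2, Slc2a3, Slc2a6, Slc4a11, Slc7a11, Slc16a9 and Slc37a2 were also among the 26. The choice of members favoured a difference in such genes, so their fold changes and p-values below are a description. 4 of the 227, among them Slc9a3r1 and Slc9a3r2, encode scaffolds or other proteins that are no carriers and were kept as a class of their own.

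The libraries came from C57BL/6 mice carrying the Min allele of Apc, a truncating mutation after which intestinal adenomas form, so controls carried it too. The ex/ex mice in addition carried a pair of ex alleles of Adam17, which are known to be hypomorphic. Adam17 encodes a protease that sheds epidermal growth factor receptor ligands and the interleukin-6 receptor. There were 17 tumour and 6 non-tumour libraries of Apc Min/+ ::ADAM17 ex/ex mice, and 12 tumour and 4 non-tumour libraries of Apc Min/+ mice with wild-type Adam17. The series asks what Adam17 contributes to tumours in this model. No label gives the position along the gut, the age, the sex or the animal of a sample, so several samples may come from 1 mouse, and the p-values then reflect only how these samples vary, which may be technical.

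Solute carriers are membrane proteins that move sugars, amino acids, ions, vitamins and other small molecules across the plasma membrane and the membranes of organelles. In an enterocyte, carriers of the brush border take nutrients up from the lumen, mostly driven by sodium or proton gradients. Another set in the basolateral membrane passes them to the blood, and the sodium pump keeps the gradient. Duodenum, jejunum and ileum use partly different carriers, so the position of a sample along the gut bears on its carrier levels. Dividing cells also use amino acid exchangers such as Slc7a5 with Slc3a2, and the cystine importer Slc7a11.

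The 39 libraries held 438639 to 11112321 gene counts, and the 227 genes took 0.466 to 3.10% of them. Replicate 1 of wild-type non-tumour tissue was the shallow one, with 34.8% of its counts from Gm42418, a locus overlapping ribosomal RNA. Replicate 4 of that group held 1689 CPM of 10 endothelial markers in sum, against 141 to 171 CPM in the others. It was also the highest of its group on red blood cell, fibroblast, macrophage and mast cell markers. Adam17 itself had 10.4 to 42.4 CPM in ex/ex tumours, 8.60 to 12.2 CPM in ex/ex non-tumour tissue, 33.6 to 110.1 CPM in wild-type tumours and 2.28 to 66.9 CPM in wild-type non-tumour tissue. Epithelial markers were detected in every library, with 0 of 10 at 0 in each. Wild-type tumour 4 held 657.6 CPM of them in sum, against 7491 to 17509 CPM in the other 11 wild-type tumours, and it was the lowest wild-type tumour for 134 of the 227 carriers. Wild-type non-tumour replicate 1 held 1860.3 CPM, against 11265 to 11777 CPM in the other 3 of its group. The 10 B cell markers summed to 11.1 to 5561 CPM in ex/ex tumours (median 2660), 25.01 to 48.8 CPM in ex/ex non-tumour tissue, 10.8 to 5307 CPM in wild-type tumours (median 19.1) and 22.9 to 45.9 CPM in wild-type non-tumour tissue. No B cell marker was at 0 in every library of a group, while Blk, Cd79b, Cr2, Fcer2a and Pax5 were among those at 0 in some libraries. In bulk tissue, fewer cells of a type and less RNA per cell cannot be told apart. 5 libraries, ex/ex tumours 1, 2 and 3 and ex/ex non-tumour 1 and 2, had more Ddx3y than Xist counts.

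The promoters of 5 carriers on which the results turn are shown as RefSeq gives them on GRCm38.p6, each from 250 bases before to 50 bases after the transcript start, 5′ to 3′ on the gene's strand. Slc46a1 (proton-coupled folate transporter, chr11:78465451-78465750, plus strand) was among the carriers with the lowest fold change in ex/ex tumours. Slc30a10 (manganese exporter, chr1:185454598-185454897, plus strand) and Slc37a2 (sugar phosphate exchanger, chr9:37255689-37255988, minus strand) were high in the same pair of libraries. Slc7a11 (cystine importer, chr3:50443564-50443863, minus strand) was among those with the highest, and Slc38a4 (neutral amino acid carrier, chr15:97055907-97056206, minus strand, the most upstream of 3 starts in the table) had its high levels in wild-type tumours, through which alone it met the limit. Capitals mark matches on either strand to 7 motifs, which may overlap.
Slc46a1: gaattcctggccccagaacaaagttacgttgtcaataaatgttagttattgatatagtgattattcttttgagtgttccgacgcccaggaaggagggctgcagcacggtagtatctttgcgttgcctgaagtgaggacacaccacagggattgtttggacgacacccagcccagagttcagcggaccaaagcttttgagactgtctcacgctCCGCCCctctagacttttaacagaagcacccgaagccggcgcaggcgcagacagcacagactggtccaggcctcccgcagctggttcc
Slc30a10: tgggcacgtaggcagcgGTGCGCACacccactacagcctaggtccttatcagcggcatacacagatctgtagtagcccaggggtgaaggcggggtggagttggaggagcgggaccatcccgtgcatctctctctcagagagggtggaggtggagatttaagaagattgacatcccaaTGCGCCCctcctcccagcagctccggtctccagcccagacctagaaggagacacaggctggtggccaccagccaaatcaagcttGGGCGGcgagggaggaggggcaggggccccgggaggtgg
Slc37a2: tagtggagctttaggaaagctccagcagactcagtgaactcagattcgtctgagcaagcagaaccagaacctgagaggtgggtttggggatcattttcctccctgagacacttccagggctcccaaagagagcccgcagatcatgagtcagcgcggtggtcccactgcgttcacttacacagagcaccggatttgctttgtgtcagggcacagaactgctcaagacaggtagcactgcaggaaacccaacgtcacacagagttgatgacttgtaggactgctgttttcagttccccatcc
Slc7a11: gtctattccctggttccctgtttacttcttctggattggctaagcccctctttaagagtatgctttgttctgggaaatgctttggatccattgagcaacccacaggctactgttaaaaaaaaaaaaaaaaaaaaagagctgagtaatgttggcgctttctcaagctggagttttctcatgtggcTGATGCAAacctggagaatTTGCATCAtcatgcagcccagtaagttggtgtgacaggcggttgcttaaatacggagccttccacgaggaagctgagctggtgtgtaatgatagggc
Slc38a4: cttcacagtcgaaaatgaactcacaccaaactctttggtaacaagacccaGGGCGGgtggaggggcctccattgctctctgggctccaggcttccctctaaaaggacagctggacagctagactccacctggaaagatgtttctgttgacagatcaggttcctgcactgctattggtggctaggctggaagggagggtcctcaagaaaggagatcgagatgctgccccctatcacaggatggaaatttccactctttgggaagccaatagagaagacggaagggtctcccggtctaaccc
The GC box GGGCGG lay in Slc46a1, Slc30a10 and Slc38a4, and was in 35.7% of all 32851 promoters in the table and in 70.0% of the 223 promoters of the 169 carriers found there. Slc30a10 also held 3 matches to TGCGCNC, a core of the metal response element with G at its variable base (15.4% of all promoters), a pair of which overlap on opposite strands. Slc7a11 held 2 matches to TGATGCAA, the amino acid response element (0.895% of all), at bases -66 and -47 counted from the start. Slc37a2 held 0 matches. The other motifs searched were AGATAA for GATA factors (11.2%), TTTATG for CDX factors (11.9%), TGACNNNGC for the antioxidant response element (12.4%) and TGCACNC, the metal response core with A (12.6%), with no match in these 5 windows. A match is a run of letters and no evidence of binding.

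Per kilobase of exon and over all 39 libraries, the ADP/ATP carrier of mitochondria Slc25a5 had the highest level, 539.5 CPM per kb. It was followed by the sodium-glucose cotransporter Slc5a1 (474.1 CPM per kb), the scaffold Slc9a3r1 (407.1), the neutral amino acid carrier Slc6a19 (203.8), the fatty acid transporter Slc27a4 (153.7) and the peptide transporter Slc15a1 (145.5 CPM per kb). All carrier levels below are CPM after edgeR's TMM scaling of library sizes, which serve to compare samples and not genes. Sums and means of marker lists are from CPM without that scaling.

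Against non-tumour tissue of the same genotype, carriers lower in ex/ex tumours included 4 of 8 for vitamins, 7 of 13 for nucleotide sugars and 11 of 27 for metals. Calls went both ways among carriers of ions (8 higher and 8 lower of 24) and of amino acids and peptides (9 higher and 8 lower of 37). In that comparison 34 of the 227 carriers (15%) were higher and 69 (30.4%) lower in ex/ex tumours, beside 23.8% higher and 23.2% lower among all 16327 genes tested (edgeR's quasi-likelihood test, Benjamini-Hochberg adjusted p under 0.05). The 26 carriers that met the limit through some groups only made up 13 of the 34 higher and 7 of the 69 lower calls, which leaves 21 higher and 62 lower among the other 201. In 12 of the 227 the 2 groups did not overlap, with 4 above and 8 below. The share of all genes tested without overlap was not counted, here or for any other comparison below. The median log2 fold change of the carriers was -0.37, against -0.03 for all genes. In wild-type mice 2 carriers were higher and 5 lower in tumours than in non-tumour tissue, beside 1.87% and 3.15% of all genes. That comparison rests on 4 non-tumour libraries, and its count of carriers with an unadjusted p under 0.05 was 22 higher and 21 lower. Between tumours of the 2 genotypes 22 carriers were higher and 32 lower in ex/ex, beside 15.2% and 18.0% of all genes, so their shares of 9.69% and 14.1% were below both. Of these calls, 8 higher and 4 lower fell on the 26 carriers above. The direction of that split turned with each covariate. With the mean level of the B cell markers as a covariate, 70 carriers were higher and 12 lower. The counts were 44 and 19 with that of the epithelial markers, and 40 and 21 with those of proximal and distal intestinal markers. Shares of all genes called in these fits were not counted, so the turn is not shown to be particular to carriers. Without wild-type tumour 4, 29 were higher and 46 lower between tumour genotypes, 11 carriers were called in wild type and 5 in the interaction. In non-tumour tissue 3 were higher and 1 lower in ex/ex tissue, beside 0.386% and 1.01%. Among the rest, 4 carriers lay wholly above and 1 wholly below wild type in ex/ex non-tumour tissue, and none of these 5 was called. The tumour effect itself differed between genotypes for 3 carriers, each with the lower log2 change in ex/ex and 0 with the higher one, beside 0.0857% higher and 0.116% lower of all genes. For that interaction 5 carriers were higher and 29 lower at an unadjusted p under 0.05, and DESeq2 called 0 higher and 5 lower.

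**Figure D1:**
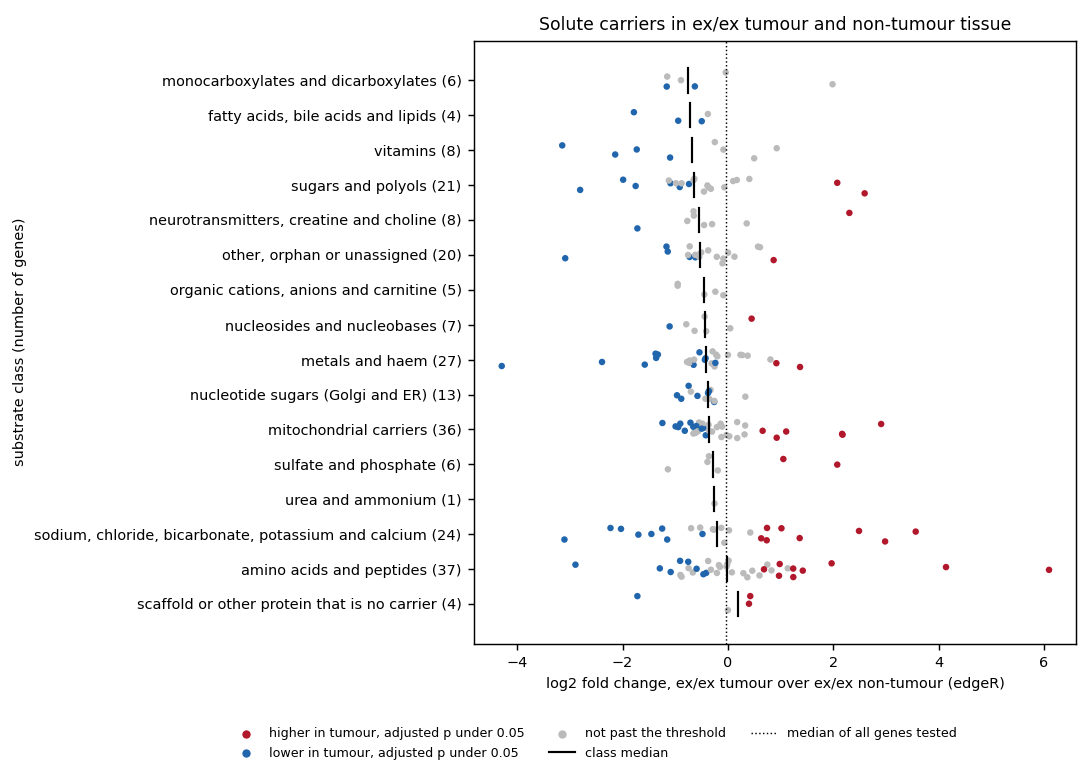
Log2 fold change of each of the 227 genes in ex/ex tumours over ex/ex non-tumour tissue (x axis), by substrate class (y axis, number of genes in brackets). Red points were higher and blue points lower at an adjusted p under 0.05, grey points did not pass, black bars are class medians and the dotted line is the median of all genes tested. Vitamin carriers hold 4 blue points of 8 and no red one, while the 37 carriers of amino acids and peptides hold 9 red and 8 blue points around a median of -0.01.

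Replicates 3 and 4 of ex/ex non-tumour tissue stood apart from the other 4 in several carriers, as their values below show. On 10 markers of the proximal intestine they averaged 9.11 and 9.04 (log2 scale), against 5.30 to 7.28 in the other 4 libraries of their group. Without both libraries, an alternative chosen after seeing the data, 31 carriers were higher and 47 lower in ex/ex tumours than in ex/ex non-tumour tissue. Of the calls made with all libraries, 26 of 34 and 44 of 69 were kept. With the mean B cell marker level as a covariate, 9 of the 34 higher and 12 of the 69 lower calls were kept, and with covariates for proximal and distal intestinal markers 10 and 17. Rbp2, Lct and Fabp1 of the proximal markers also serve as enterocyte markers here, so these position covariates do not stand for position alone. B cell markers and tissue are nearly confounded in ex/ex samples, since 15 of 17 tumours held 1527 to 5561 CPM of the B cell list and all 6 non-tumour libraries under 49 CPM.

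Among the 21 sugar and polyol carriers, 2 were higher and 6 lower in ex/ex tumours than in ex/ex non-tumour tissue, with a median log2 change of -0.64. Slc2a2, the glucose transporter GLUT2 of the basolateral membrane, had 1.92 to 440.2 CPM in ex/ex tumours (median 95.2). The 6 ex/ex non-tumour libraries had 805, 787, 575, 507, 817 and 472 CPM, all above every tumour. It fell by 1.99 on the log2 scale (SE 0.81, adjusted p = 0.0419), a call lost when any 1 of 13 libraries was left out (adjusted p 0.0505 to 0.0716). In wild-type mice its range was 0.174 to 315 CPM in tumours (median 30.1) and 194 to 622 CPM in non-tumour tissue, with a log2 difference of -2.66 that did not pass (adjusted p = 0.102). Slc5a1, which takes up glucose and galactose with sodium at the brush border, averaged 1732 ± 1302 CPM in ex/ex tumours and 3428 ± 1002 CPM in ex/ex non-tumour tissue (SD, n = 17 and 6). Its tumours had 237.3 to 4282 CPM and overlapped with the non-tumour range of 2192 to 4808 CPM, and the log2 difference of -0.99 did not pass (adjusted p = 0.0747). The fructose carrier Slc2a5 averaged 76.6 ± 68.2 CPM in ex/ex tumours and 166 ± 45.6 CPM in ex/ex non-tumour tissue, also short of the threshold (log2 difference -1.12, adjusted p = 0.0785). Markers of the proximal intestine moved with these genes: 10 of them summed to 115 to 10122 CPM in ex/ex tumours, with Pdx1 and Tmprss15 at 0 in some, against 3511 to 14680 CPM and none at 0 in ex/ex non-tumour tissue. Their part in the result was not tested beyond the covariate, with which Slc2a2 had a log2 difference of 0.27. The 2 sugar carriers that were higher were Slc2a3 (log2 change 2.08, adjusted p = 0.00232), a glucose transporter of neurons and leukocytes, and Slc2a6 (2.60, adjusted p = 0.00214), both named after their values were seen. Both are among the 26 carriers that met the limit through some groups only, so their rises are a description.

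**Figure D2:**
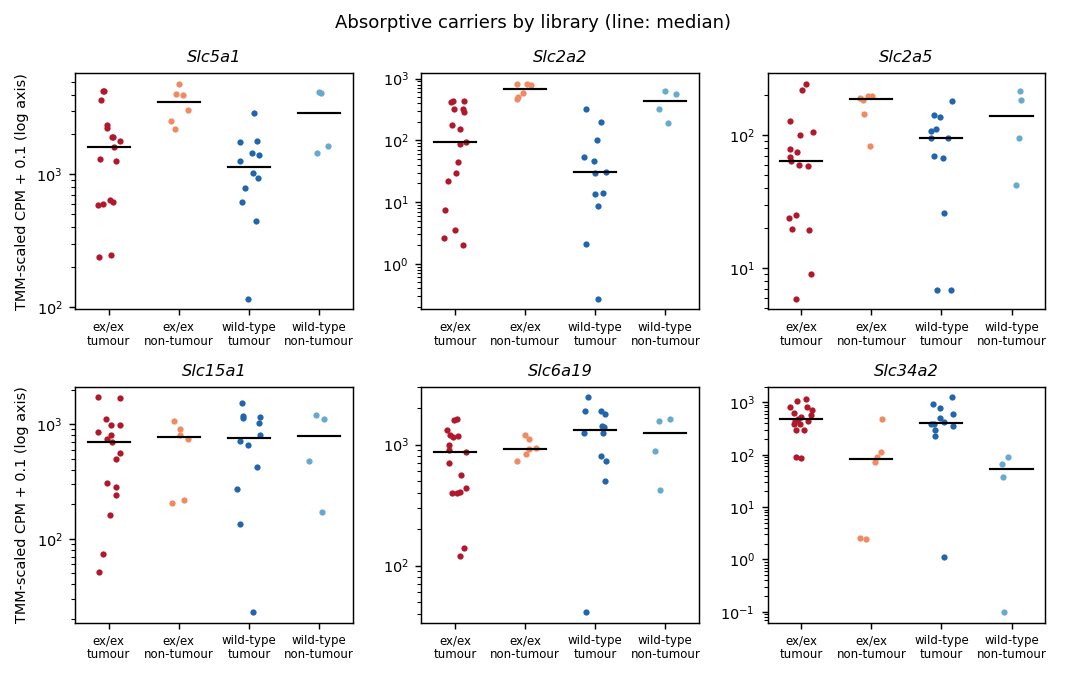
Levels of 6 absorptive carriers (y axis, TMM-scaled CPM + 0.1, log scale) in ex/ex tumours, ex/ex non-tumour tissue, wild-type tumours and wild-type non-tumour tissue (x axis), 1 point per library, lines at the medians. Slc2a2 is the one whose ex/ex groups do not overlap, while the ranges of Slc15a1 and Slc6a19 overlap between the ex/ex groups.

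Of 30 brush border carriers among the 32 listed, 1 was higher and 5 lower in ex/ex tumours than in ex/ex non-tumour tissue (median log2 change -0.49), and of 15 basolateral carriers among 16 listed, 0 were higher and 5 lower (median -0.64). At the brush border 3.33% were thus higher and 16.7% lower, both below the 23.8% and 23.2% of all genes, and on the basolateral side 33.3% were lower. Lower at the brush border were Slc46a1, the sodium-proton exchanger Slc9a3, Slc11a2, the anion exchanger Slc26a6 and the taurine carrier Slc6a6. On the basolateral side Slc2a2, Slc40a1, Slc4a4, Slc12a2 and Slc23a2 were lower, and without ex/ex non-tumour replicates 3 and 4 the calls of 3 of the 5 brush border and 2 of the 5 basolateral carriers were kept. The uptake systems for protein digestion products showed no such call. Slc15a1, the proton-coupled peptide transporter, had 693 ± 507 CPM in ex/ex tumours and 657 ± 362 CPM in ex/ex non-tumour tissue. Slc6a19 had 827 ± 481 CPM in ex/ex tumours and 955 ± 175 CPM in ex/ex non-tumour tissue. Slc3a1 and Slc7a9, which together import cystine and basic amino acids, differed by 0.01 and -0.03 on the log2 scale between ex/ex tumours and ex/ex non-tumour tissue. Standard errors of 0.43 and 0.40 leave room for differences of either sign. In wild-type tumours against wild-type non-tumour tissue, 0 brush border and 0 basolateral carriers were called by edgeR.

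The other absorptive carriers of the panel did not pass in either genotype or between tumour genotypes. Among them were the amino acid carriers Slc1a1, Slc36a1, Slc7a7 and Slc7a8, the biotin and pantothenate carrier Slc5a6, the ascorbate carrier Slc23a1 and the zinc exporter Slc30a1. The carnitine carrier Slc22a5 and the nucleoside carriers Slc28a2 and Slc29a1 were likewise not called. Slc7a8, a basolateral exchanger of neutral amino acids, averaged 222 ± 187 CPM in ex/ex tumours and 408 ± 221 CPM in ex/ex non-tumour tissue (SD, n = 17 and 6, log2 difference -0.88, adjusted p = 0.211 in edgeR). Slc5a6 averaged 51.7 ± 30.1 CPM in ex/ex tumours and 36.5 ± 8.60 CPM in ex/ex non-tumour tissue (0.50, adjusted p = 0.248). Further members with the highest level per kb of their class did not pass there either. The creatine carrier Slc6a8 averaged 620.2 ± 420.4 CPM in ex/ex tumours and 764 ± 178 CPM in ex/ex non-tumour tissue (log2 difference -0.30, adjusted p = 0.584). The others were the dicarboxylate carrier Slc13a2 (log2 difference -0.04), the urea transporter Slc14a1 (-0.27) and Slc35f5 (-0.62).

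Carriers of vitamins had the highest share of lower members among classes of at least 5 genes after the nucleotide sugar carriers. Of 8 vitamin carriers, 0 were higher and 4 lower in ex/ex tumours, with a median log2 change of -0.67, and all 4 calls were kept without non-tumour replicates 3 and 4. Slc46a1, which brings folate into the enterocyte in the acid duodenum and jejunum, had 3.74 to 164 CPM in ex/ex tumours (median 11.6). In ex/ex non-tumour tissue it had 443, 436, 538, 514, 295 and 29.5 CPM, so only the sixth library lay within the range of the tumours. It fell by 3.14 on the log2 scale (SE 0.63, adjusted p = 0.000193). In wild-type mice it had 4.95 to 103 CPM in tumours (median 36.4), against 96.9, 224.5, 264.5 and 233.1 CPM in non-tumour tissue, and the log2 difference of -2.22 missed the threshold (adjusted p = 0.0825). With the position covariates, which also hold enterocyte markers, its ex/ex difference was -0.30 (adjusted p = 0.665), and with the B cell covariate -1.10 (adjusted p = 0.279).

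Slc19a1, the reduced folate carrier found in most cells, had a narrow range in tumours, 9.72 to 14.9 CPM in ex/ex (median 12.01) and 8.61 to 16.5 CPM in wild type (median 12.6). In ex/ex non-tumour tissue it had 44.3, 41.0, 90.2, 82.3, 44.2 and 18.4 CPM, all above every ex/ex tumour, and in wild-type non-tumour tissue 12.1, 21.3, 18.7 and 28.5 CPM. It was lower in tumours of both genotypes, by a log2 difference of -2.14 in ex/ex (SE 0.16, adjusted p = 8.59e-12) and -0.84 in wild type (SE 0.22, adjusted p = 0.0168). The wild-type call was lost without non-tumour replicate 2 (adjusted p = 0.0546) or 4 (adjusted p = 0.151). In non-tumour tissue it was higher in ex/ex than in wild type (log2 difference 1.30, SE 0.26, adjusted p = 0.00286). The difference of the tumour effects, -1.30, passed narrowly (SE 0.29, adjusted p = 0.0445) and was lost in 28 of 39 fits that left out 1 library (adjusted p 0.051 to 0.15). Slc23a2, a sodium-ascorbate cotransporter, averaged 54.8 ± 22.0 CPM in ex/ex tumours and 182 ± 59.7 CPM in ex/ex non-tumour tissue (log2 change -1.73, adjusted p = 1.31e-07). Slc52a3, the riboflavin carrier with the highest level per kb of the class, averaged 159 CPM in ex/ex tumours and 83.3 CPM in ex/ex non-tumour tissue and did not pass (adjusted p = 0.128). The mitochondrial folate carrier Slc25a32 was lower in tumours of both genotypes, by 0.60 in ex/ex and 0.62 in wild type on the log2 scale (adjusted p = 0.00027 and 0.0197). Slc23a2 and Slc25a32 were named after their values were seen.

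**Figure D3:**
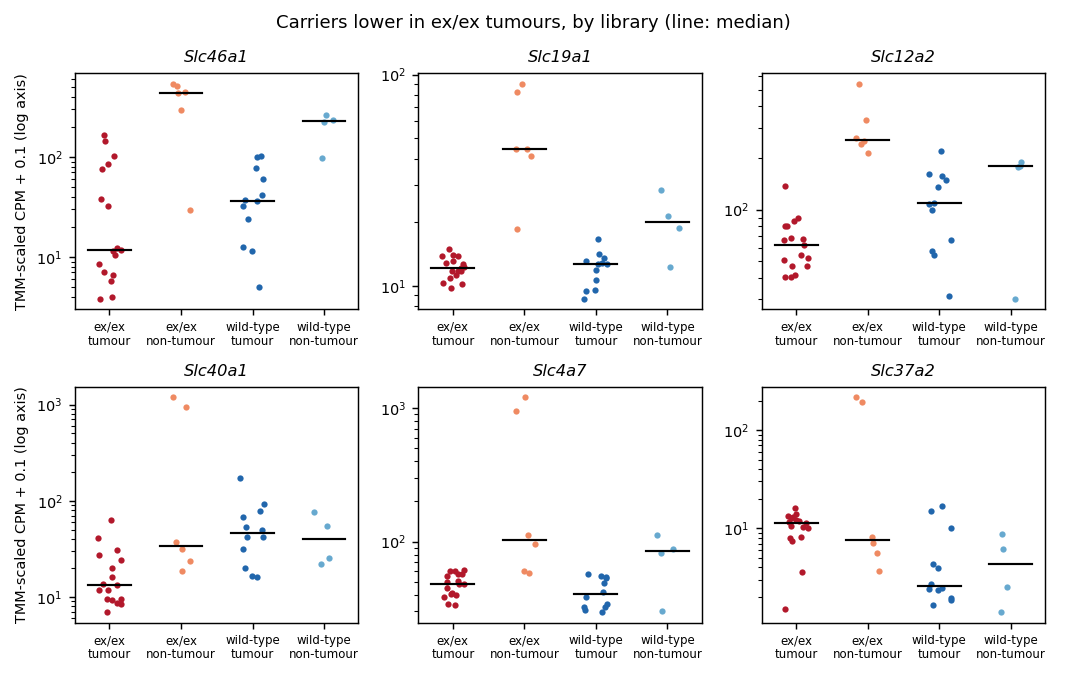
Levels of 6 carriers called lower in ex/ex tumours (y axis, TMM-scaled CPM + 0.1, log scale) in the 4 groups (x axis), 1 point per library, lines at the medians. In Slc40a1, Slc4a7 and Slc37a2 a pair of ex/ex non-tumour libraries stands above all others, at 933 and 1190 CPM for Slc40a1, whereas in Slc12a2 and Slc19a1 all 6 lie above every ex/ex tumour.

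Of 27 metal carriers, 2 were higher, 11 lower and 14 not called in ex/ex tumours against ex/ex non-tumour tissue (median log2 change -0.42), and without non-tumour replicates 3 and 4 the calls of 6 of these 11 were kept. Slc40a1, ferroportin, which exports iron from enterocytes and macrophages, had 6.91 to 62.4 CPM in ex/ex tumours (median 13.3). In ex/ex non-tumour tissue it had 23.5, 18.5, 933, 1190, 31.1 and 36.8 CPM, so replicates 3 and 4 carried the group mean of 372 CPM. Its log2 change of -4.29 (SE 0.58, adjusted p = 7.05e-07) became -0.53 (adjusted p = 0.387) without them. The same pair of libraries carried Slc30a10, which exports manganese. It had 54.4, 58.7, 361, 399, 32.4 and 25.3 CPM in ex/ex non-tumour tissue, against 12.9 to 57.8 CPM in ex/ex tumours. Its log2 change was -2.39 with these 2 libraries (adjusted p = 4.2e-05) and -0.53 without them (adjusted p = 0.301). Slc11a2, the proton-coupled iron importer DMT1, followed them with 215 and 199 CPM in replicates 3 and 4 and 41.9 to 72.0 CPM in the other 4. Its call (log2 change -1.37, adjusted p = 0.000163) was likewise lost without the pair (-0.47, adjusted p = 0.156). Cybrd1, the duodenal ferric reductase that works beside DMT1 and is itself 1 of the 10 proximal markers, was lower in ex/ex tumours by 3.14 on the log2 scale. Slc39a14, a zinc and manganese importer, kept its call without the pair (log2 change -1.37, adjusted p = 0.00228). It had 34.9 to 173 CPM in ex/ex tumours and 175 to 290 CPM in ex/ex non-tumour tissue, with no overlap (log2 change -1.36, adjusted p = 0.000265 with all libraries). Slc39a4, the zinc importer of the brush border, averaged 257.4 CPM in ex/ex tumours and 295.5 CPM in ex/ex non-tumour tissue (adjusted p = 0.711). Slc30a10 and Slc39a14 were named after their values were seen.

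The 24 carriers of sodium, chloride, bicarbonate, potassium and calcium divided into 8 higher and 8 lower in ex/ex tumours. Slc12a2, the basolateral cotransporter NKCC1 that loads chloride for secretion, had 40.2 to 138 CPM in ex/ex tumours (median 62.4). All 6 ex/ex non-tumour libraries were above the tumours, at 214 to 539 CPM (median 255.7), and it fell by 2.23 on the log2 scale (SE 0.27, adjusted p = 1.29e-07). Without non-tumour replicates 3 and 4 the change was -1.99 (adjusted p = 1.65e-05), and with the B cell covariate -1.24 (adjusted p = 0.00898). Wild-type tumours had 31.3 to 218 CPM (median 109) and wild-type non-tumour tissue 30.3, 189, 180.0 and 178 CPM, with a log2 difference of -0.42 (adjusted p = 0.526). Cftr, the chloride channel that Slc12a2 supplies, was also lower in ex/ex tumours (log2 change -1.93, adjusted p = 9.12e-05). Slc4a7, a sodium-bicarbonate cotransporter, had 33.4 to 61.3 CPM in ex/ex tumours and 111, 95.6, 956, 1202, 58.5 and 60.6 CPM in ex/ex non-tumour tissue. Its log2 change was -3.10 (SE 0.35, adjusted p = 2.75e-08), and -0.76 without replicates 3 and 4, still past the threshold (adjusted p = 0.00364). The basolateral bicarbonate cotransporter Slc4a4, the exchanger Slc26a6 and the sodium-proton exchanger Slc9a3 were lower by 1.15, 1.25 and 1.70 on the log2 scale (adjusted p = 0.0103, 0.0107 and 0.00596). Leaving out ex/ex non-tumour replicate 4 ended the call of Slc4a4 (adjusted p = 0.0606).

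Slc34a2 and Slc5a8 are carriers of phosphate and of short-chain fatty acids with lactate, and tumours of both genotypes had medians far above those of non-tumour tissue. Slc34a2 had 85.2 to 1143 CPM in ex/ex tumours (median 485), against 72.8, 91.0, 2.33, 2.49, 113 and 488 CPM in ex/ex non-tumour tissue. It was higher in ex/ex tumours (log2 change 2.08, SE 0.78, adjusted p = 0.0275), a call lost without any 1 of ex/ex non-tumour replicates 1 to 5 (adjusted p 0.0518 to 0.0598). In wild-type mice it averaged 510 ± 337 CPM in tumours and 49.2 ± 39.7 CPM in non-tumour tissue (log2 difference 3.24, adjusted p = 0.0583). Slc5a8 had 47.0 to 237.1 CPM in ex/ex tumours, and 1.84, 2.68, 0.156, 0.146, 3.76 and 197 CPM in ex/ex non-tumour tissue. Its log2 difference of 1.99 was at the edge of the threshold (adjusted p = 0.0506). In both genes ex/ex non-tumour replicate 6 was the high one, and on 10 markers of the distal intestine that library averaged 6.09 (log2 scale) against 3.26 to 4.50 in the other 5. Its summed Paneth, goblet, fibroblast and colon markers were also the highest of its group. What part any of these lists has in the levels of that library was not tested. Slc20a1, a phosphate carrier of most cells, had 42.8 to 79.7 CPM in ex/ex tumours and 15.4 to 38.9 CPM in ex/ex non-tumour tissue, with no overlap (log2 change 1.05, adjusted p = 6.54e-05). Slc16a1, the lactate and butyrate carrier MCT1, was lower in ex/ex tumours (72.2 ± 31.0 CPM) than in ex/ex non-tumour tissue (111 ± 26.7 CPM), with a log2 change of -0.63 (adjusted p = 0.0191). That call was lost without ex/ex non-tumour replicate 1 (adjusted p = 0.0621).

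Of 10 amino acid carriers linked to growth among 12 listed, 4 were higher and 1 lower in ex/ex tumours than in ex/ex non-tumour tissue (median log2 change 0.72), beside 23.8% and 23.2% of all genes, and 5 were not called. All 5 calls were kept without non-tumour replicates 3 and 4. The higher ones were Slc7a11, Slc7a5, Slc1a5 and Slc7a6, and the lower one was Slc1a4, an exchanger of small neutral amino acids (log2 change -1.09). Slc7a11, which imports cystine in exchange for glutamate for glutathione synthesis, had 2.70 to 44.7 CPM in ex/ex tumours (median 26.6). The ex/ex non-tumour libraries had 0.788, 2.01, 0.622, 0.146, 1.61 and 2.945 CPM, and the lowest tumour lay within that range. It rose by 4.14 on the log2 scale (SE 0.73, adjusted p = 4.39e-05). Slc7a11 is 1 of the 26 carriers that met the limit through some groups only, so its rise is a description. Slc7a5, the leucine exchanger LAT1, averaged 29.8 ± 13.7 CPM in ex/ex tumours and 12.6 ± 6.33 CPM in ex/ex non-tumour tissue (log2 change 1.24, adjusted p = 0.00575). Its partner chain Slc3a2 averaged 305 ± 181 CPM in ex/ex tumours and 395 ± 135 CPM in ex/ex non-tumour tissue and did not pass (adjusted p = 0.377). Slc1a5, which brings in glutamine, averaged 120 ± 46.5 CPM in ex/ex tumours and 60.6 ± 27.8 CPM in ex/ex non-tumour tissue (log2 change 0.98, adjusted p = 0.00707). Slc7a6 overlaps Slc7a6os on the opposite strand, and since the strand setting of the counting is not given, their reads cannot be told apart. In wild-type mice 0 of these 10 carriers passed in edgeR between tumour and non-tumour tissue.

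Levels of several of the higher carriers followed the B cell marker list across libraries. Beside Slc7a11, the largest of these changes were those of Slc36a2, a proton-coupled carrier of proline and glycine, and Slc9a7, a sodium-proton exchanger of the Golgi. Slc36a2 had 0.285 to 17.9 CPM in ex/ex tumours (median 10.8), against 0.108 to 0.218 CPM in ex/ex non-tumour tissue, which is 1 or 2 counts in each of those 6 libraries. Its log2 change was 6.09 (SE 1.05, adjusted p = 3.38e-05), a size that depends on those few counts. Both genes met the limit through ex/ex tumours alone, so a higher level there was favoured by the choice of members. Slc9a7 had 0.285 to 25.4 CPM in ex/ex tumours (median 13.1) and 0.394 to 1.51 CPM in ex/ex non-tumour tissue (log2 change 3.56, adjusted p = 0.00113). The ex/ex tumours 1 and 2, the ones with least B cell marker RNA (281 and 11.1 CPM in sum), were the lowest for Slc36a2 with 1.43 and 0.285 CPM and for Slc7a11 with 7.33 and 2.70 CPM. These tumours also held the most enterocyte marker RNA of the ex/ex tumours, 94105 and 91468 CPM, and had more Ddx3y than Xist counts. With the B cell covariate, Slc36a2 and Slc7a11 kept a log2 change of 2.04 and 1.51 (adjusted p = 0.000672 and 0.0245), Slc1a5 had -0.18 and Slc9a7 -0.90. Of the 4 higher growth carriers, 1 call was kept. The same list moved with Slc15a3 and Slc15a4, endolysosomal carriers of histidine and peptides in immune cells, which were higher by 1.97 and 1.42 on the log2 scale and were named after their values were seen. T cell, macrophage and proliferation markers moved with the B cell list. Ex/ex tumour 2 held 29.4, 145 and 206 CPM of them, and ex/ex tumour 5 held 705, 2788 and 2837 CPM. Which of these lists the carriers follow was not tested.

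**Figure D4:**
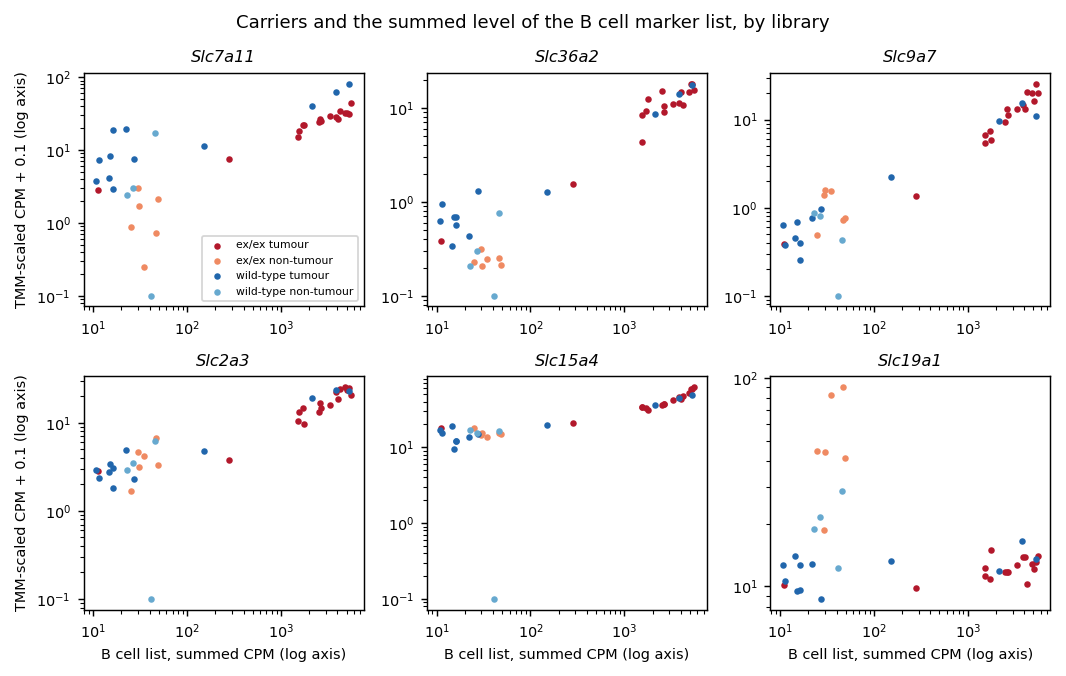
Level of 6 carriers (y axis, TMM-scaled CPM + 0.1, log scale) against the summed level of 10 B cell markers (x axis, CPM, log scale), 1 point per library, coloured by group. Slc36a2, Slc9a7, Slc2a3 and Slc15a4 are high in the libraries above 1500 CPM of the B cell list, of both genotypes, whereas Slc19a1 is flat across tumours and high in ex/ex non-tumour tissue.

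Mitochondrial carriers, the largest class after those of amino acids, had 6 higher and 12 lower members of 36 in ex/ex tumours (median log2 change -0.36). The aspartate-glutamate carrier Slc25a13 was lower (25.3 ± 7.20 CPM in ex/ex tumours and 50.3 ± 9.59 CPM in ex/ex non-tumour tissue, log2 change -0.99, adjusted p = 3.89e-05). Slc25a5 had 329 to 1681 CPM in ex/ex tumours and 886 to 1519 CPM in ex/ex non-tumour tissue and did not pass (adjusted p = 0.0788). Of 13 members of the nucleotide sugar class of the Golgi and endoplasmic reticulum, 0 were higher and 7 lower (median -0.38), none by more than a log2 unit. Classes were set by gene family with exceptions by symbol, so single members may carry other substrates. Slc35d1, Slc35a3 and the CMP-sialic acid carrier Slc35a1 had the largest changes (log2 -0.97, -0.89 and -0.75), and without non-tumour replicates 3 and 4 the call of 1 of the 7 was kept. Slc35b1, the class member with the highest level per kb, averaged 102 CPM in ex/ex tumours and 129 CPM in ex/ex non-tumour tissue (adjusted p = 0.25). Of 4 carriers of fatty acids and lipids, 0 were higher and 3 lower. Slc27a2 averaged 76.4 ± 79.3 CPM in ex/ex tumours and 262.7 ± 83.8 CPM in ex/ex non-tumour tissue (log2 change -1.78, adjusted p = 0.00608), while Slc27a4 did not pass (log2 difference -0.38, adjusted p = 0.497). None of the 5 carriers of organic ions and carnitine was called by edgeR, 1 being lower at an unadjusted p under 0.05. Carriers of this paragraph other than Slc25a5, Slc35b1 and Slc27a4 were named after their values were seen.

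Between tumours of the 2 genotypes no carrier separated the groups completely: the ranges of all 227 overlapped. How many of all genes tested separate these groups was not counted. Slc38a4, a system A carrier of neutral amino acids whose gene is imprinted in the mouse, had 0 to 1.99 CPM in ex/ex tumours (median 0.346). In wild-type tumours it had 0.0868 to 514 CPM (median 61.6), with 5 libraries at 0.0868 to 3.65 CPM and the other 7 at 28.7 CPM or more. Since it met the limit through wild-type tumours alone, its differences are a description. It was lower in ex/ex tumours by 8.34 on the log2 scale (SE 0.84, adjusted p = 4.05e-09). Non-tumour tissue of both genotypes had low levels, 1.18, 1.005, 4.35, 9.08, 1.29 and 1.64 CPM in ex/ex and 0, 1.11, 2.96 and 4.02 CPM in wild type. In wild type it was higher in tumours (log2 change 5.68, adjusted p = 0.0192), a call lost without non-tumour replicate 2 (adjusted p = 0.09) or 3 (adjusted p = 0.0621). In ex/ex it was lower in tumours (-2.89, adjusted p = 0.0129), a call lost without non-tumour replicate 4 (adjusted p = 0.0903). The difference of these effects, -8.57 (SE 1.81), had an adjusted p of 0.0328 and lost its call without ex/ex non-tumour replicate 4 or any 1 wild-type non-tumour library (adjusted p 0.0525 to 0.103). With the B cell covariate Slc38a4 was still lower in ex/ex tumours (log2 difference -4.51, adjusted p = 0.00161).

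A glucose carrier and a lactate carrier also had lower levels in ex/ex tumours than in those of wild-type mice. Slc2a1, the glucose transporter GLUT1, had 10.5 to 31.0 CPM in ex/ex tumours (median 22.1) and 24.3 to 120 CPM in wild-type tumours (median 68.8), with a log2 difference of -1.55 (SE 0.22, adjusted p = 1.16e-06). Slc16a3, the lactate exporter MCT4, had 5.203 to 54.0 CPM in ex/ex tumours (median 11.9) and 7.48 to 119 CPM in wild-type tumours (median 82.3), with a log2 difference of -2.13 (SE 0.38, adjusted p = 4.93e-05). The medians lie far apart in both, while the lowest wild-type tumours reach into the ex/ex range. Slc4a11, a membrane protein of the bicarbonate carrier family, had 0.9996 to 10.99 CPM in ex/ex tumours and 2.27 to 27.3 CPM in wild-type tumours (log2 difference -2.43, adjusted p = 3.69e-06). Within ex/ex it was higher in tumours than in non-tumour tissue, whose 6 libraries held 0.293 to 0.777 CPM (log2 change 2.49, adjusted p = 0.00133). Slc4a11 met the limit through some groups only, so its differences are a description. Wild-type tumours 1, 4 and 7, which held 3814, 5307 and 2142 CPM of the B cell list against 10.8 to 151 CPM in the other 9, had the lowest levels of all 3 genes in their group. They had 29.7, 27.1 and 24.3 CPM of Slc2a1, 2.34, 2.93 and 2.27 CPM of Slc4a11 and 12.3, 7.48 and 21 CPM of Slc16a3. The same tumours held the least epithelial marker RNA of their group, 7491, 658 and 9305 CPM against 15211 to 17509 in the others. Their mast cell markers were the lowest as well (27.6, 38.8 and 35.1 CPM against 52.4 to 1079). Which of these lists the 3 genes follow was not tested. With the B cell covariate Slc2a1 stayed lower in ex/ex tumours (log2 difference -1.21, adjusted p = 0.00924), while Slc16a3 and Slc4a11 did not pass (-0.38 and -0.66, adjusted p = 0.457 and 0.136). Of the 22 higher and 32 lower calls between tumour genotypes, 2 and 4 were kept with that covariate.

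Other amino acid carriers differed between tumour genotypes as well. Slc6a14, a broad sodium- and chloride-coupled importer, had 0 to 16.6 CPM in ex/ex tumours (median 0.0964) and 0.0909 to 129 CPM in wild-type tumours (median 3.70), with overlapping ranges (log2 difference -3.78, SE 0.90, adjusted p = 0.00156). Slc1a4 had 3.90 to 10.2 CPM in ex/ex tumours and 3.90 to 46.7 CPM in wild-type tumours (log2 difference -1.77, adjusted p = 1.27e-05). Higher in ex/ex tumours was the glutamate carrier Slc1a2, with 1.91 to 30.3 CPM (median 13.98) against 0.392 to 12.3 CPM (median 1.42) in wild-type tumours (log2 difference 1.95, SE 0.44, adjusted p = 0.00103). The difference of Slc1a2 with the B cell covariate was 0.66 (adjusted p = 0.108). Slc36a2 and Slc9a7 were higher as well (log2 difference 1.47 and 1.75, adjusted p = 0.0301 and 0.0144), the call of Slc36a2 ending in 13 of the 39 fits without 1 library (adjusted p 0.0501 to 0.0614). Slc6a14 met the limit through wild-type tumours alone, Slc36a2 and Slc9a7 through ex/ex tumours alone and Slc1a2 through some groups only. The differences of these genes are therefore a description. Of the absorptive carriers, Slc5a1, Slc2a2, Slc15a1 and Slc6a19 did not pass between tumour genotypes (adjusted p 0.302, 0.16, 0.867 and 0.161). Mast cell markers, 7 genes summing to 21.6 to 92.8 CPM in ex/ex tumours (median 31.7) and 27.6 to 1079 CPM in wild-type tumours (median 505), also differed between these groups. Epithelial markers (median 8748 CPM in ex/ex and 15607 CPM in wild-type tumours) and red blood cell markers (3.12 to 15.6 against 28.4 to 290 CPM) differed as well. The part of mast cell and red blood cell markers in these results was not tested, and that of epithelial markers only through the covariate.

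**Figure D5:**
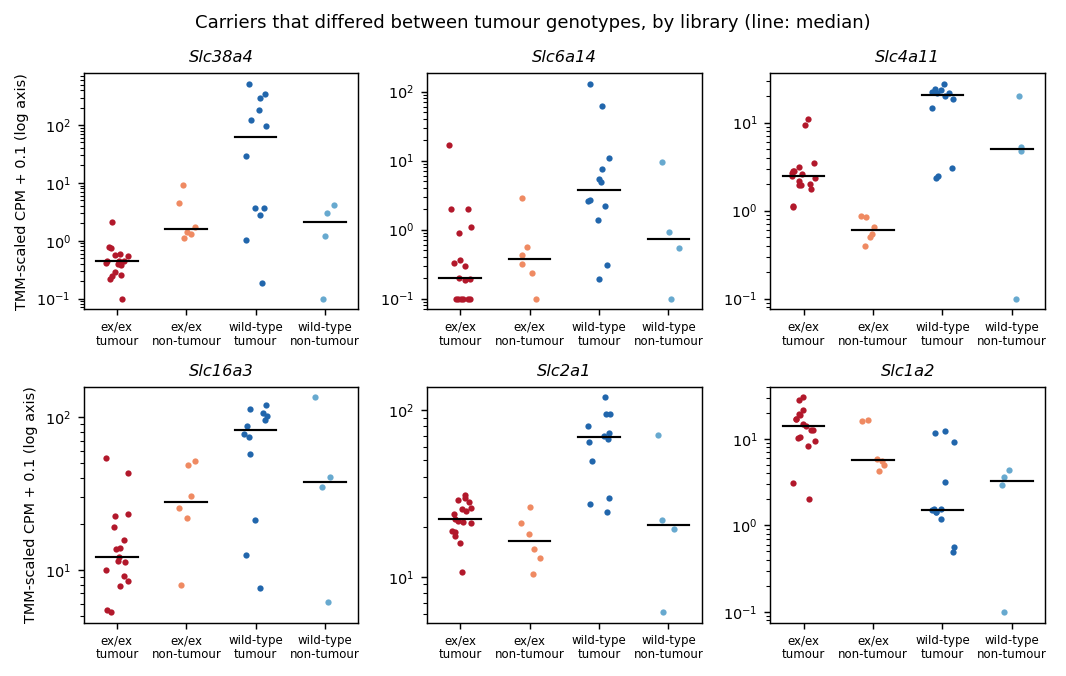
Levels of 6 carriers called different between tumour genotypes (y axis, TMM-scaled CPM + 0.1, log scale) in the 4 groups (x axis), 1 point per library, lines at the medians. Slc38a4 stays under 2 CPM in all 17 ex/ex tumours and spans 0.0868 to 514 CPM in wild-type tumours, and 3 wild-type tumours lie among the ex/ex tumours in Slc4a11, Slc16a3 and Slc2a1.

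In non-tumour tissue 4 carriers passed between ex/ex and wild type. Slc4a11 was lower in ex/ex, with 0.293 to 0.777 CPM in 6 libraries, against 0, 5.15, 4.60 and 19.8 CPM in wild type (log2 difference -4.03, SE 0.73, adjusted p = 0.000908), the library at 0 being the shallow one. Slc19a1, described above, was higher. Slc4a7 and Slc37a2 were higher through ex/ex replicates 3 and 4. Slc37a2, which exchanges sugar phosphate for phosphate in the endoplasmic reticulum, had 8.01, 7.03, 193, 216, 5.48 and 3.60 CPM in ex/ex non-tumour tissue, against 6.06, 2.42, 1.31 and 8.71 CPM in wild type. Its log2 difference of 4.12 (adjusted p = 0.0414) became 0.54 (adjusted p = 0.948) without these 2 libraries, and the 2.33 of Slc4a7 (adjusted p = 0.0239) became -0.02 (adjusted p = 1.0). Leaving out 1 of wild-type replicates 1 and 4 or ex/ex replicates 3 and 4 also ended the call of Slc4a7 (adjusted p 0.0861 to 0.107). The call of Slc37a2 ended in 13 such fits (0.0543 to 0.118). Against ex/ex tumours, which had 1.42 to 16.1 CPM of Slc37a2, the log2 change of -2.80 turned to 0.77 without replicates 3 and 4, which did not pass. Without wild-type non-tumour replicates 1 and 4, 0 of the 4 calls was kept by edgeR, with 7 carriers higher and 2 lower at an unadjusted p under 0.05. Slc16a9, chosen after its values were seen, showed the same pair, with 126 and 142 CPM in ex/ex replicates 3 and 4 and 2.26 to 4.07 CPM in the other 4. Slc4a11, Slc16a9 and Slc37a2 met the limit through some groups only, so their differences are a description.

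Between wild-type tumours and wild-type non-tumour tissue 7 carriers passed: Slc38a4 and Slc7a6os were higher, and Slc9a3r2, Slc43a3, Slc19a1, Slc35e3 and Slc25a32 lower. Slc7a6os had 25.8 to 39.9 CPM in wild-type tumours and 18.2, 20.4, 21.5 and 23.8 CPM in wild-type non-tumour tissue, the single gene whose groups did not overlap there (log2 change 0.53, SE 0.12, adjusted p = 0.00398). It encodes no carrier. Slc9a3r2, a scaffold that binds the exchanger Slc9a3, had 9.02 to 28.7 CPM in wild-type tumours and 90.8, 16.8, 17.5 and 87.8 CPM in wild-type non-tumour tissue (log2 change -1.57, adjusted p = 0.0055). Slc43a3, a nucleobase carrier, had 12.3 to 52.6 CPM in tumours and 42.4, 35.6, 28.2 and 121 CPM in non-tumour tissue (log2 change -1.31, adjusted p = 0.00801). Replicate 4 was high in both, and without it neither passed (log2 change -0.92 and -0.49, adjusted p = 0.197 and 0.414). That is the library with the endothelial markers. It was also high on red blood cell markers (1218 CPM in sum against 22.8 to 56.7 in the others of its group) and fibroblast markers (2147 against 178 to 719). The same held for macrophage (1023 against 198 to 303) and mast cell markers (571 against 9.12 to 196). The part of these lists was not tested. In ex/ex mice Slc9a3r2 was lower in tumours too, with 4.34 to 14.6 CPM there against 19.7 to 62.7 CPM in ex/ex non-tumour tissue and no overlap (log2 change -1.72, adjusted p = 1.04e-05), and Slc43a3 did not pass (-0.41, adjusted p = 0.177). The comparisons of tumour with non-tumour tissue in each genotype and of the genotypes in each tissue share libraries, so they are not independent.

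The third carrier whose tumour effect differed between genotypes, beside Slc19a1 and Slc38a4, was Slc27a1, a fatty acid transporter of muscle and fat cells. It had 7.23 to 12.3 CPM in ex/ex tumours and 14.8, 13.3, 17.9, 38.7, 11.3 and 13.4 CPM in ex/ex non-tumour tissue. In wild-type mice it had 10.1 to 26.2 CPM in tumours and 0, 12.5, 11.5 and 13.2 CPM in non-tumour tissue. It was lower in ex/ex tumours (log2 change -0.94, adjusted p = 0.000367), a call lost without non-tumour replicates 3 and 4 (-0.48, adjusted p = 0.0562), and the wild-type log2 difference of 0.59 did not pass (adjusted p = 0.21). The difference of the effects, -1.54 (SE 0.35), had an adjusted p of 0.0448, lost in 28 of the 39 fits without 1 library (0.0525 to 0.174). Without ex/ex non-tumour replicates 3 and 4, 0 carriers passed the interaction in edgeR and 14 had an unadjusted p under 0.05.

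Of 39 listed genes of epithelial transport outside the naming rule, 36 were tested, among them the solute carriers Slco2a1, Slco2b1 and Slco3a1. Of the 36, 3 were higher and 15 lower in ex/ex tumours than in ex/ex non-tumour tissue (median log2 change -0.87). These are 8.33% and 41.7%, beside 23.8% and 23.2% of all genes. They include partners of the carriers above: the beta chain of the sodium pump Atp1b1 was lower (log2 change -1.02, adjusted p = 0.0276). The channels and binding proteins of calcium uptake, Trpv6 and S100g, were lower by 10.3 and 7.38 on the log2 scale. Trpv6 was also higher in ex/ex than in wild-type non-tumour tissue (log2 difference 12.3, SE 2.88, adjusted p = 0.0179). Its tumour effect differed between genotypes (-14.96, SE 3.22, adjusted p = 0.0411). S100g passed in neither comparison (log2 difference 4.93 and -7.70, adjusted p = 0.169 and 0.0885). The standard errors of Trpv6 are wide, and levels per library are not given for the 36 genes. Whether their calls rest on the pair of ex/ex non-tumour libraries with the highest proximal markers was not tested. In ex/ex tumours the potassium channel subunits Kcnq1 and Kcne3 were lower by 1.76 and 1.79. The cholesterol exporter Abca1, the pump subunit Atp1b3 and Emb, a partner of lactate carriers, were higher (log2 change 1.14, 0.72 and 1.28). Between tumour genotypes 2 of the 36 were higher and 7 lower in ex/ex, with Fxyd3, a regulator of the pump, at -3.48 and Kcne3 at -2.19 on the log2 scale. Their shares of 5.56% and 19.4% stand beside 15.2% and 18.0% of all genes.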

How the data were processed

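RNA from intestinal tumours and surrounding tissue was sequenced from stranded TruSeq mRNA libraries made from 500 ng of RNA, per the labels. The authors deposited raw counts per gene, made with Trimmomatic 0.36, TopHat2 2.0.14 and HTSeq on GRCm38, per the submitters' processing notes. For HTSeq a version and a strand setting, and the annotation used, were not given in the sources used here. Count tables held 49585 gene IDs, of which 43749 had the same versioned ID in GENCODE M21, 5577 matched without the version and 259 did not match (0.0851% of counts). HTSeq's summary lines were kept out of library sizes. Reads that HTSeq listed as not uniquely aligned are among those lines, so carriers with near-identical copies may be undercounted.

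From these counts all 39 libraries were fitted together in 4 groups with edgeR 4.0.16 in R 4.3.3 (limma 3.58.1), with TMM scaling (factors 0.377 to 1.43), edgeR's expression filter, a robust quasi-likelihood F test and Benjamini-Hochberg adjustment over the 16327 genes tested, at a threshold of 0.05. DESeq2 1.42.0 was an alternative. All 227 carriers passed the filter. The standard error was the log2 fold change over the root of F. The script was tested on simulated counts. Alternatives were other size factors, no filter, fits of 2 groups, covariates for B cell, proximal and distal, or epithelial markers, and fits without named libraries or without each library in turn.

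The members and lists were chosen with earlier results of these data known. Genes named with values were those of an intestinal panel (37 of 40 were members), the 3 highest and 3 lowest called log2 fold changes per comparison, the called interactions, the member of each class with the highest level per kilobase, and those next to the limit. Slc1a4, Slc2a3, Slc2a6, Slc6a6, Slc7a6, Slc15a3, Slc15a4, Slc16a9, Slc23a2, Slc25a13, Slc25a32, Slc27a2, Slc30a10, Slc35a1, Slc35a3, Slc35d1, Slc35e3 and Slc39a14 fall outside this rule and were chosen after their values were seen. Marker lists were summed as CPM with no test. The results of a few genes are not reported here.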

Additional observations from a re-analysis of the deposited data

Results flagged for a closer look

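Each of the 120 groups looked at was 1 named gene in the 6 ex/ex or the 4 wild-type non-tumour libraries. Tumours were not looked at. Of these groups, 13 held a value whose gap to its nearest neighbour was large against the range of its group (Dixon's test). Chance gives about 1 in 20. All values are TMM-scaled CPM.

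In ex/ex non-tumour tissue, replicate 4 stood above the other 5 libraries in Slc12a2 (539.2 CPM against 214 to 331), Slc27a1 (38.7 against 11.3 to 17.9), the polyol and glucose carrier Slc2a10 (17.9 against 5.91 to 10.04), Slc6a14 (2.78 against 0 to 0.466) and Slc9a3r2 (62.7 against 19.7 to 27.4). Replicate 6 stood above the others in the glutamate carrier Slc1a1 (154.9 CPM against 9.81 to 46.5), Slc34a2 (488 against 2.33 to 113) and Slc5a8 (197 against 0.146 to 3.76). Replicate 3 stood above in Slc7a6os, with 30.5 CPM against 20.2 to 23.6.

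In wild-type non-tumour tissue, replicate 1, the library of low depth, stood below the other 3 in Slc12a2 (30.3 CPM against 178 to 189) and Slc27a1 (0 against 11.5 to 13.2). Replicate 4 stood above them in Slc43a3 (121 CPM against 28.2 to 42.4) and Slc6a14 (9.38 against 0 to 0.808).

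The tumour effect differed between the genotypes in 3 genes by the interaction term of the edgeR fit. The log2 change in ex/ex minus that in wild type was -1.30 for Slc19a1, -8.57 for Slc38a4 and -1.54 for Slc27a1.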

How the results depend on the processing

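In edgeR with all libraries, 103 carriers were called between ex/ex tumour and non-tumour tissue, 7 between wild-type tumour and non-tumour tissue, 54 between tumour genotypes, 4 between non-tumour genotypes and 3 in the interaction. Leaving out 1 library at a time gave 90 to 127, 3 to 11, 41 to 75, 2 to 6 and 0 to 5. With the B cell covariate the counts were 52, 22, 82 (70 higher, 12 lower) and 8 in the first 4 comparisons, and with position covariates 32, 19 in wild type, 7 in non-tumour tissue and 0 in the interaction (33 at an unadjusted p under 0.05). Between tumour genotypes the position covariates gave 61 (40 higher, 21 lower) and the epithelial covariate 63 (44 higher, 19 lower), against 22 and 32 without them. The epithelial covariate gave 48 in wild type, 9 in non-tumour tissue and 0 in the interaction (39 unadjusted). Between ex/ex tumour and non-tumour tissue it gave 38 higher and 99 lower, against 34 and 69 without it. Without a filter there were 4 in wild type, 2 in non-tumour tissue and 0 in the interaction (33 unadjusted). Fits of 2 groups gave 0 in wild type (40 unadjusted) and 0 in non-tumour tissue (21 unadjusted). DESeq2 called 15 in wild type (9 higher, 6 lower, against 2 and 5 in edgeR), 7 in non-tumour tissue (6 higher, 1 lower, against 3 and 1) and 5 in the interaction. Without wild-type non-tumour replicates 1 and 4 there were 0 in non-tumour tissue (9 unadjusted) and 0 in the interaction (21 unadjusted). Without the 5 libraries with more Ddx3y than Xist there were 89 between tumour genotypes (30 higher, 59 lower) and 6 in the interaction. Without ex/ex non-tumour replicates 3 and 4, chosen after seeing the data, there were 11 in wild type, 1 in non-tumour tissue and 0 in the interaction (14 unadjusted). The cause of these shifts was not tested, and shares of all genes called in these alternative fits were not counted. DESeq2 moved the median log2 value of all genes to 0.37 in the interaction, against -0.08 in edgeR, and to -0.10 against 0.07 in wild type; no filter moved it to 0.15 in ex/ex and 0.17 in wild type.

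The direction turned with the B cell covariate, for tumour against non-tumour tissue in ex/ex, in Slc1a5 (log2 -0.18), Slc38a4 (1.04), Slc26a6 (0.17), Slc2a2 (0.22), Slc16a1 (0.27), Slc9a7 (-0.90) and Slc4a4 (0.0026). Between tumour genotypes it turned in Slc1a5 (-0.12), Slc36a2 (-0.077), Slc12a2 (0.054) and Slc9a7 (-0.065). With position covariates Slc2a2 turned in ex/ex (0.27). Without ex/ex non-tumour replicates 3 and 4, Slc37a2 turned in ex/ex (0.77) and Slc4a7 between non-tumour genotypes (-0.020). None of these 14 values passed the threshold. No paired analysis was possible because the labels carry no replicate numbers or animals, and numbers given in accession order pair nothing. The 4 and 6 non-tumour libraries limit every comparison that uses them, and wild-type non-tumour replicate 1 held 438639 gene counts, so its low values rest on few counts.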
